A study of Mus musculus with 2 samples.

Results

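The H19 and Igf2 domain and the Kcnq1 domain are neighbouring imprinted clusters on mouse chromosome 7, in which some genes are transcribed only from the maternal and others only from the paternal chromosome. They were examined here through 1430 CpG cytosines, 351 in a window of 120000 bp around H19 and Igf2 and 1079 in a window of 540000 bp around Ascl2, Kcnq1, Kcnq1ot1 and Cdkn1c, out of 2466496 such cytosines on the 19 autosomes. A cytosine was taken when it lay in either window and had at least 5 reads in both libraries, whatever its methylation. The named genes were H19, Igf2, Cdkn1c, Kcnq1ot1, Kcnq1 and Phlda2, but Phlda2 began 31545 bp beyond the edge of the Kcnq1 window, so none of its cytosines is among the 1430 and its values are given apart.

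Liver was collected from CD-1 mice (an outbred stock) aged 12 weeks, after a fast of 12 hr (fasted) or without a fast (control). Each group had 1 library, and the number of mice behind it was not stated in the labels. Reduced representation bisulfite sequencing was used: DNA is cut at CpG-containing restriction sites, and bisulfite turns unmethylated cytosines, but not methylated ones, into bases read as thymine. With 1 library a group no spread between animals could be estimated, and every test on reads below compares 2 libraries, not 2 conditions. Coordinates are in mm10, count from 1 and lie on chromosome 7. Reads of a CpG's plus and minus strand are sequenced as separate molecules after bisulfite treatment, so the strands give separate readings of the same site within a library.

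In the H19 and Igf2 domain, an imprinting control region a few kilobases upstream of H19 is methylated on the paternal chromosome and bound by the insulator protein CTCF on the maternal one. That arrangement is known to give maternal H19, a long noncoding RNA, and paternal Igf2, a fetal growth factor. In the Kcnq1 domain, the control region is the promoter of Kcnq1ot1, a long noncoding RNA that runs antisense within the potassium channel gene Kcnq1. It is methylated on the maternal chromosome, and the paternal RNA silences neighbours such as Cdkn1c, an inhibitor of cyclin-dependent kinases, Phlda2, a restrainer of placental growth, and Ascl2, a transcription factor of the placenta. A region methylated on a single parental chromosome is read as an intermediate level in a mixture of both chromosomes, and these libraries do not separate the parental chromosomes.

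Promoter sequences are shown to place the measured CpGs, because the promoters of these genes were covered to very different extents. They were taken from RefSeq (GRCm38.p6, the same build as mm10), which held 3 of the 6 named genes, as the 250 bases before each annotated start, written 5′ to 3′ along the gene, which lies on the minus strand in every case shown. In the Kcnq1ot1 promoter capitals mark CCAAT, the motif of the factor NF-Y, which is known to act on this promoter. In the other promoters capitals mark CpGs with a measured cytosine.
Kcnq1ot1 promoter, chr7:143296548-143296797: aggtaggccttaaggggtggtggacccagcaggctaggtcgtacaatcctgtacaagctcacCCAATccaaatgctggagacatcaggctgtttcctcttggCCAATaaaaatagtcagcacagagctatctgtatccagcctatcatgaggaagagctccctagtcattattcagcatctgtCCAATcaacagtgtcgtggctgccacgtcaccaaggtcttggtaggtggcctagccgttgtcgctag
Igf2 promoter, chr7:142658805-142659054: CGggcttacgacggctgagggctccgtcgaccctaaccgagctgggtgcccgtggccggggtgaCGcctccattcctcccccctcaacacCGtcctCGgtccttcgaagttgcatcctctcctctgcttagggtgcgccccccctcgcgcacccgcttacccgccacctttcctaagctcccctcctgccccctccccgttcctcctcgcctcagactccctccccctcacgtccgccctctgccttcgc
Igf2 promoter further downstream, chr7:142657497-142657746: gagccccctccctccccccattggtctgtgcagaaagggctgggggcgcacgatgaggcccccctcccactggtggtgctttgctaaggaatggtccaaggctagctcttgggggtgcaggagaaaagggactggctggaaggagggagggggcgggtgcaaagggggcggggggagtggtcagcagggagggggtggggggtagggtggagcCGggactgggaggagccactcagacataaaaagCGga
Ascl2 promoter, chr7:142969265-142969514: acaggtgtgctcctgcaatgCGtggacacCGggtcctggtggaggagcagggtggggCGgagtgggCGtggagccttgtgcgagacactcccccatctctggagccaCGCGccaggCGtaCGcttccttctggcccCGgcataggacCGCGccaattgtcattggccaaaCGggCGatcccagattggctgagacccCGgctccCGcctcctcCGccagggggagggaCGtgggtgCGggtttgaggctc
Phlda2 promoter, chr7:143502525-143502774: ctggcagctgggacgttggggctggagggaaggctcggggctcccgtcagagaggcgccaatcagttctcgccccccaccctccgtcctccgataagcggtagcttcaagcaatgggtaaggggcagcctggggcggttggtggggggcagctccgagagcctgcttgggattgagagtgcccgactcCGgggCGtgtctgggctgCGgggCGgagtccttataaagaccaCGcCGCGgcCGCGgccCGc

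The Kcnq1ot1 promoter held 5 CpGs, of which 0 were measured. CCAAT, searched on both strands, stood 3 times in it, and 2.79% of the 32851 promoters in the table held it at least 3 times. The Ascl2 promoter, where it is not marked, also held it 3 times. Neither CCGG, the site of the enzyme MspI, nor TCGA, the site of TaqαI, occurred in the 250 bases of the Kcnq1ot1 promoter. At least 1 CCGG was found in 47.1% of all promoters and at least 1 TCGA in 18.5%. TGCCGC, the motif of the imprint-guarding factor ZFP57, was also searched on both strands and occurred in none of the sequences shown, against 8.68% of all promoters. The measured promoters were low in both libraries. Ascl2 averaged 6.86% in the fasted and 5.69% in the control library over 36 cytosines, and Phlda2 averaged 1.06% in the fasted and 0.855% in the control library over 19. In the Igf2 promoter with 22 CpGs only 4 cytosines were measured, averaging 12.8% in the fasted and 6.25% in the control library, and in the one further downstream 3 cytosines averaged 5.00% in the fasted and 17.0% in the control library.

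The libraries were of like depth. The fasted library held 51276705 reads summed over 4110421 cytosines (median 9 reads) and the control library 49253627 reads over 4111027 cytosines (median 8). The members were covered by a median of 14 reads in both libraries and by at most 76 reads in the fasted and 72 in the control library. They belonged to 956 CpGs, 474 of them measured on both strands. At 14 reads a single cytosine can show only large differences.

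Both domains were less methylated on average than the autosomes and hardly differed between the libraries. The H19 and Igf2 window averaged 28.3% in the fasted and 28.8% in the control library, a difference of -0.454 percentage points with a counting interval of -1.69 to 0.779. The Kcnq1 window averaged 33.8% in the fasted and 33.2% in the control library, a difference of 0.601 points with a counting interval of -0.0986 to 1.30. These intervals are normal approximations that treat reads as independent and cover counting error only. Over all autosomal cytosines the averages were 45.2% in the fasted and 45.0% in the control library. Levels of 20 to 80% were shown by 26.0% of members in the fasted and 26.6% in the control library, against 20.4% and 21.4% of autosomal cytosines in the same libraries. In the H19 and Igf2 window 47.0% of cytosines lay below 10% and 13.4% above 80% in the fasted library, against 44.4% and 12.5% in the control library. In the Kcnq1 window 42.2% lay below 10% and 20.8% above 80% in the fasted library, against 44.0% and 20.7% in the control library.

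**Figure D1:**
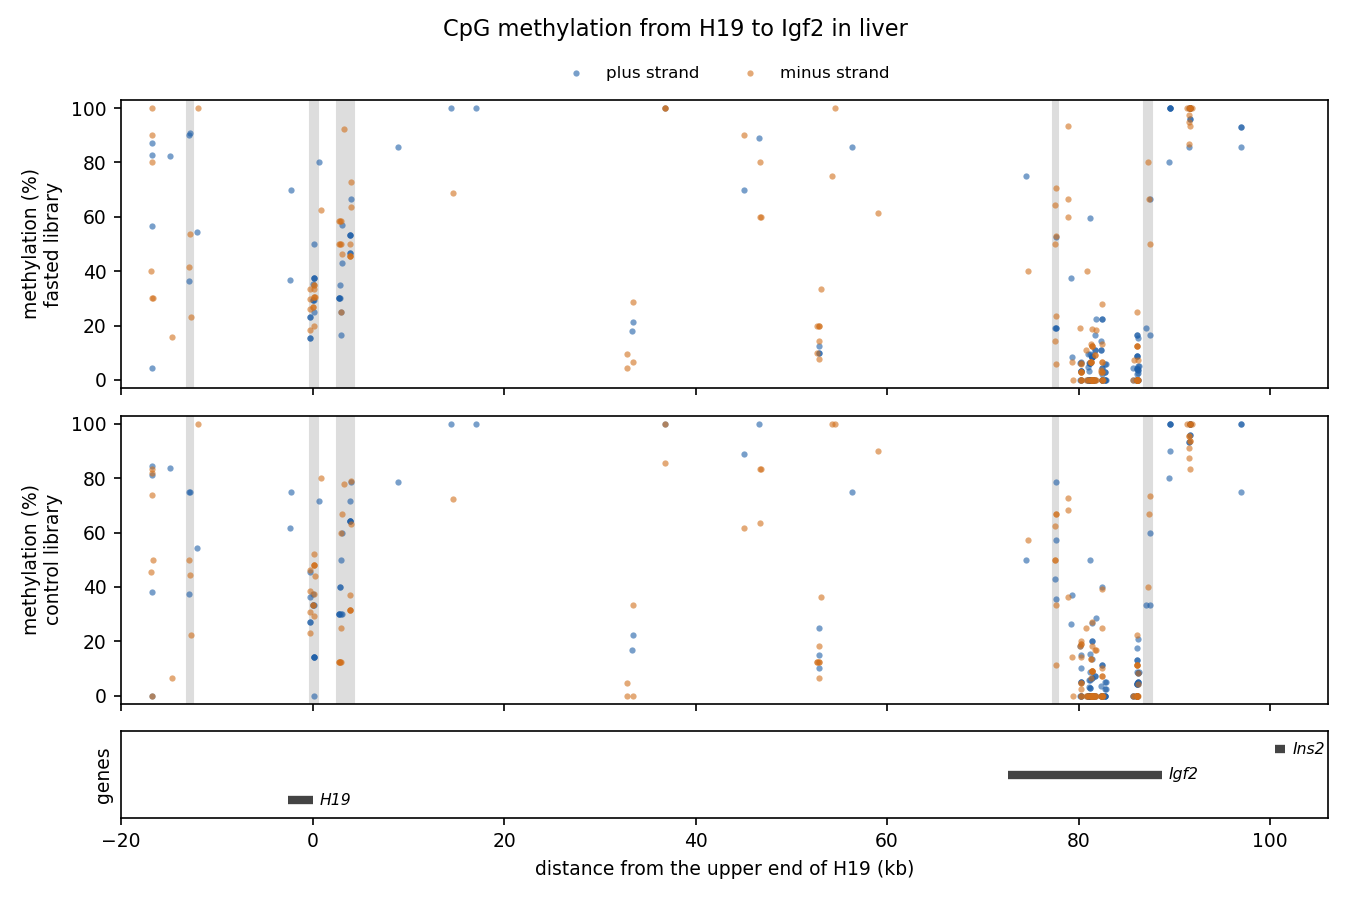
Methylation (%) of each measured cytosine against its distance from the upper end of H19, which is its start (kb), in the fasted (top) and control (middle) library, coloured by strand, with genes below. Grey bands, widened for visibility, mark the 6 stretches of intermediate methylation, of which 3 lie at and upstream of the H19 start.

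**Figure D2:**
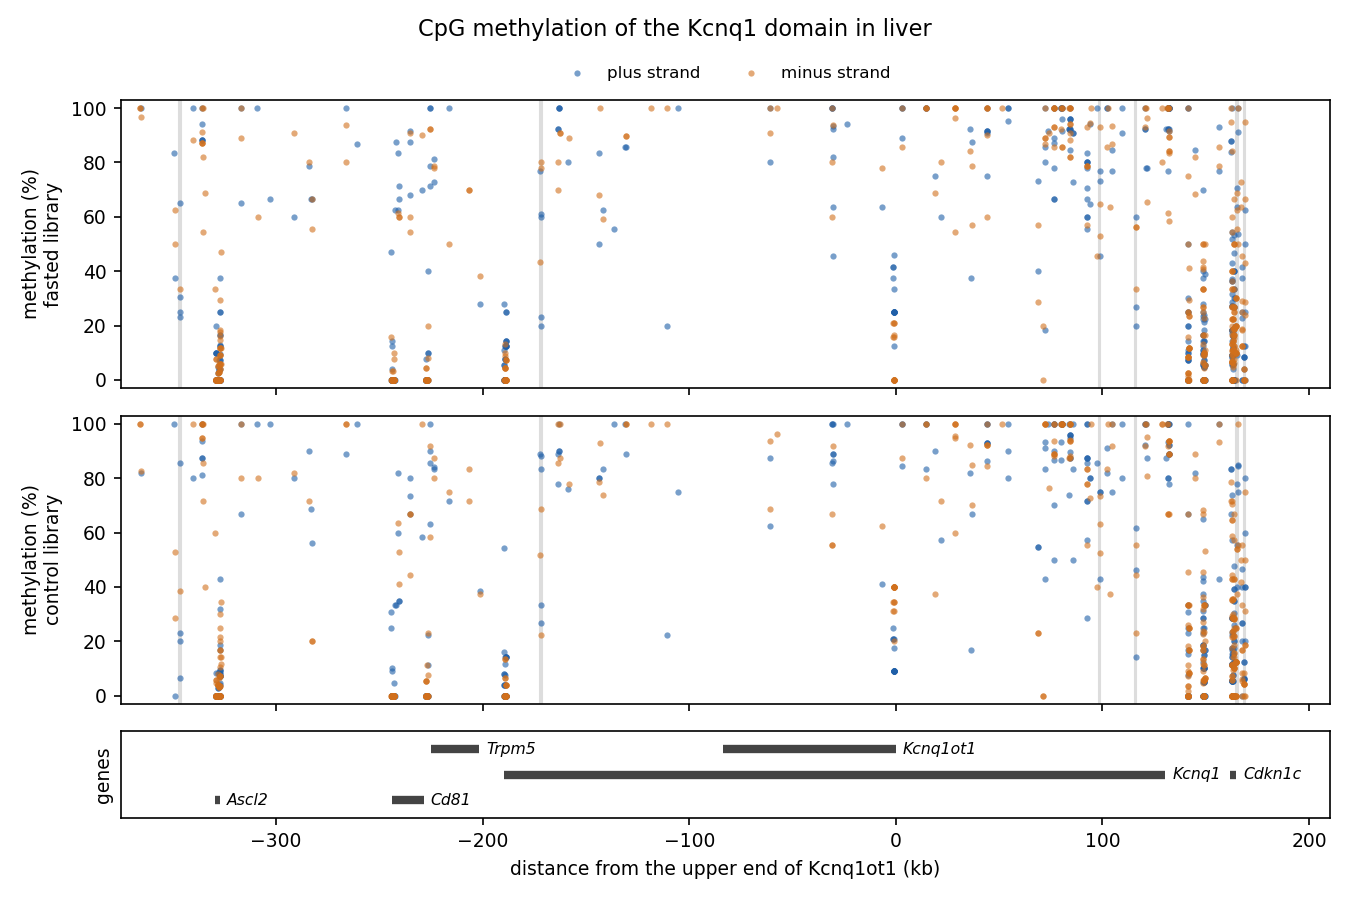
Methylation (%) of each measured cytosine against its distance from the upper end of Kcnq1ot1, which is its start (kb), in the fasted (top) and control (middle) library, coloured by strand, with genes below. Grey bands, widened likewise, mark 6 stretches of intermediate methylation, and the cluster just left of 0 inside Kcnq1ot1 lies below 50% in both libraries.

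To locate the intermediate stretches, cytosines at most 200 bp apart were joined, and runs of at least 5 were kept. A stretch was called intermediate when its mean level was 30 to 70% in each library and at least 50% of its cytosines lay at 20 to 80% as the mean of the libraries. This gave 12 intermediate stretches among 56, or 21.4%, against 9.1% of all 118629 autosomal stretches. In the H19 and Igf2 window 6 of 16 stretches were intermediate (37.5%), and in the Kcnq1 window 6 of 40 (15%). The remainder included 13 stretches under 10% and 15 above 80%. Where at least 10 reads were required, 5 of 44 stretches were intermediate (11.4%), against 8.60% of autosomal stretches, so that the share was closer to that of the autosomes. Where at least 10 cytosines were required, it was 5 of 33 (15.2%), against 7.11%.

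Upstream of H19, 3 of the 12 stretches formed a series from the start of the gene outward. The first, chr7:142578165-142578411, began 19 bp and ended 265 bp upstream of the H19 start. Its 18 cytosines averaged 32.1% in the fasted and 31.6% in the control library, and at a median depth per strand taken as a single set of reads (31 in the fasted and 32 in the control library) the exact 95% binomial intervals were 16.7 to 51.4% and 21.1 to 56.3%. The second, chr7:142580913-142581387, lay 2767 to 3241 bp upstream, where 18 cytosines averaged 43.6% in the fasted and 35.1% in the control library (intervals 23.7 to 59.4% and 13.3 to 59.0%). In the third, chr7:142582026-142582201, 3880 to 4055 bp upstream, 12 cytosines averaged 53.6% in the fasted and 56.7% in the control library (intervals 36.9 to 70.5% and 36.4 to 71.9%). The intervals of adjacent stretches overlapped, and the order of the first and second depended on the setting. With at least 10 reads the second averaged 28.1% against 29.7% in the first in the fasted library, and 35.7% against 40.7% in the control library. With every read weighted equally the control library had 36.1% in the second and 36.7% in the first. Between them lay 2 single cytosines, with 80% in the fasted and 71.4% in the control library 622 bp upstream of the start, and 62.5% and 80% at 830 bp. The stretches at 2767 to 4055 bp lie where the H19 control region is known to be.

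The strands did not show a shared order in these stretches. At the H19 start, plus strand cytosines averaged 34.6% and minus strand cytosines 29.7% in the fasted library, whereas the control library had 21.6% on the plus and 41.5% on the minus strand. In the second stretch the fasted library had 33.0% on the plus and 54.3% on the minus strand, and the control library 37.8% and 32.4%. In the third the fasted library had 53.3% on the plus and 53.8% on the minus strand, and the control library 67.9% and 45.6%. Plus minus minus strand therefore came to 4.83, -21.3 and -0.455 points in the fasted library and -19.9, 5.34 and 22.2 points in the control library. These directions turned with the setting in the first of the stretches and in the last. With at least 10 reads the minus strand of the first was higher in both libraries, and plus minus minus was -0.314 points in the fasted and -8.15 points in the control library. Over CpGs measured on both strands the plus strand of the third was higher in both, by 2.85 points in the fasted and 26.5 points in the control library.

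The counts behind these strand levels were small and repeated from cytosine to cytosine. In the second stretch, the cytosine at 142580931 on the minus strand had 6 of 12 reads methylated in the fasted library and 1 of 8 in the control library. At 142580937 the counts were 7 of 12 in the fasted and 1 of 8 in the control library, and at 142581072 they were 6 of 12 and 1 of 8 in the same order. A level of 12.5% on this strand in the control library is therefore a single methylated read of 8, seen at several cytosines. The highest cytosine of the stretch, 142581387, had 12 of 13 reads methylated (92.3%) in the fasted and 7 of 9 (77.8%) in the control library. In the third stretch the cytosine at 142582044 had 10 of 22 reads in the fasted and 6 of 19 in the control library, and the one at 142582190 had 16 of 22 (72.7%) and 15 of 19 (78.9%). Beyond the H19 start, 142578242 was the lowest cytosine by the mean of the libraries, with 3 of 8 reads in the fasted and 0 of 7 in the control library. That count of 0 allows a level of up to about 42.9%, taken as 3 reads over the total. Over neighbouring cytosines of the same strand at most 50 bp apart with equal read totals, the mean step in these 3 stretches was 6.34 points in the fasted and 5.37 in the control library, against 19.6 points in both libraries over all intermediate autosomal stretches. The step was measured after the values had been seen and is a description.

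**Figure D3:**
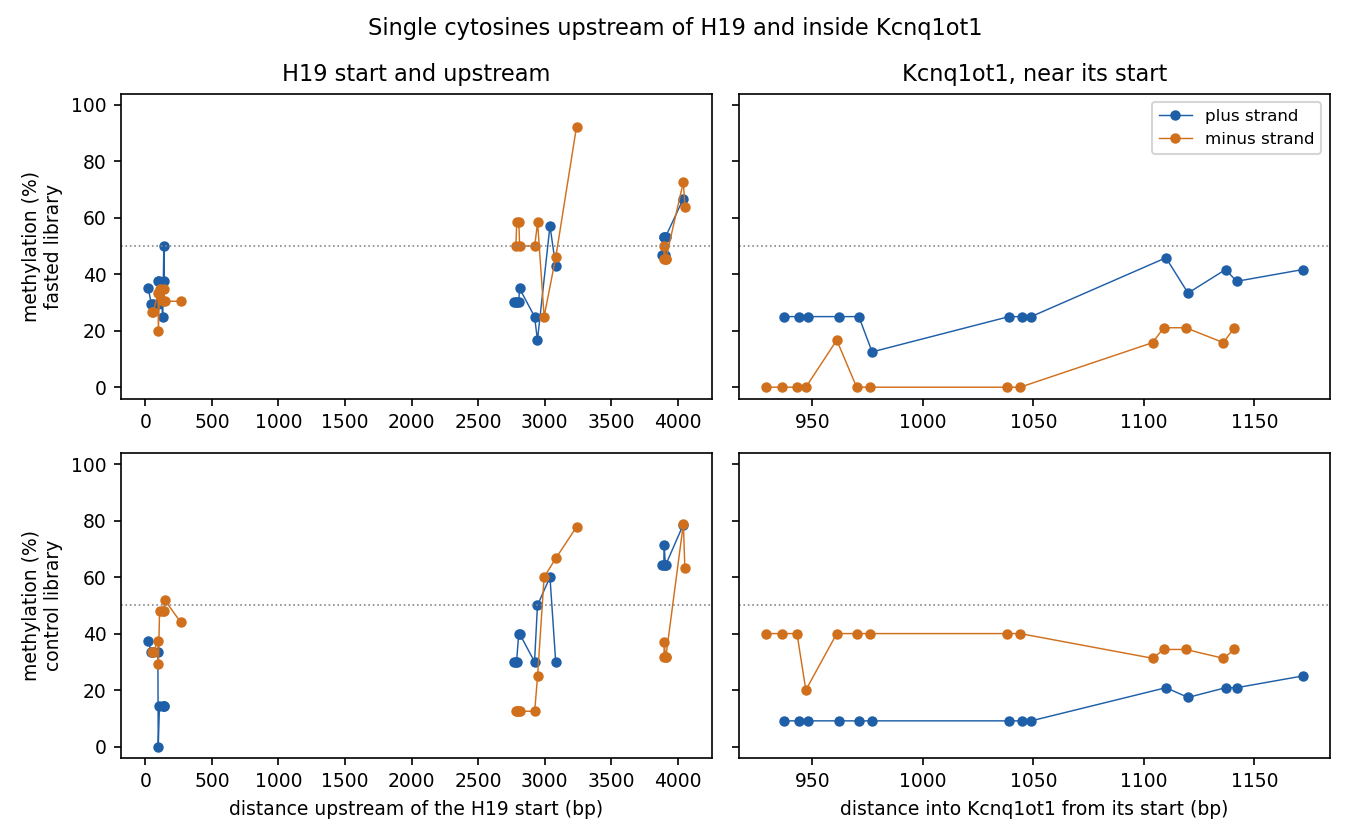
Methylation (%) of single cytosines, by strand, in the 3 intermediate stretches upstream of the H19 start (left) and in the stretch inside Kcnq1ot1 (right), with the fasted library above the control library and distance in bp. Inside Kcnq1ot1 the plus strand lies above the minus strand in the fasted library and below it in the control library.

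Within the H19 gene 10 cytosines were measured, with a mean of 29.1% in the fasted and 41.1% in the control library. The values ran from 15.4 to 70% in the fasted and from 23.1 to 75% in the control library, 9 of 10 cytosines were lower in the fasted library, and the ranges overlapped. A cluster of 8 of them, chr7:142577835-142577899, averaged 23.0% in the fasted and 34.4% in the control library, just outside the 30% limit in the fasted library. Its difference of -11.3 points had an unadjusted p of 0.0241 and an adjusted p of 0.256 (Fisher's exact test on summed reads, Benjamini-Hochberg over all autosomal stretches). On the far side of H19, chr7:142565229-142565417 was intermediate at 56.0% in the fasted and 50.7% in the control library over 6 cytosines, 6631 bp from Nctc1, a noncoding RNA gene. Both libraries had the plus strand higher there, 72.4% against 39.5% on the minus strand in the fasted and 62.5% against 38.9% in the control library.

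Igf2 was mostly unmethylated. Of its 210 cytosines 154 lay below 10% as the mean of the libraries, and the gene averaged 9.23% in the fasted and 10.4% in the control library. The largest cluster, chr7:142658958-142659918, held 87 cytosines at 4.82% in the fasted and 4.75% in the control library. Beyond the upper end of the gene, a cluster of 20 cytosines at chr7:142669481-142669945 was at 97.5% in the fasted and 95.9% in the control library. Between these extremes Igf2 held 2 intermediate stretches. At chr7:142655692-142655788, 11 cytosines averaged 35.5% in the fasted and 50.4% in the control library (intervals 19.9 to 47.5% and 34.3 to 71.7%). At chr7:142665182-142665589, where Igf2 overlaps the antisense gene Igf2os, 6 cytosines averaged 49.8% in the fasted and 51.1% in the control library. Its strands averaged 34.1% on the plus and 65.6% on the minus strand in the fasted library and 42.2% and 60.0% in the control library. Those means come partly from different CpGs, and over CpGs measured on both strands plus minus minus was 16.7 points in the fasted and -40 points in the control library, in opposite directions.

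The first of these Igf2 stretches had the largest difference of the 56, -14.9 points. Its cytosines were lower in the fasted library at 9 of 11 positions. At 142655732 on the plus strand 4 of 21 reads were methylated (19.05%) in the fasted and 8 of 14 (57.1%) in the control library. At 142655757 on the minus strand 24 of 34 reads (70.6%) were methylated in the fasted and 12 of 18 (66.7%) in the control library, so the 2 libraries were close there. The lowest cytosine, 142655788, had 1 of 17 reads in the fasted and 1 of 9 in the control library. By strand the fasted library had 27.4% on the plus and 40.2% on the minus strand, and the control library 53.6% and 48.6%. Over both strands the unadjusted p was 0.00180 and the adjusted p 0.0522 by Fisher's exact test on summed reads, just short of the threshold of 0.05. On the plus strand alone the difference was -26.2 points with an adjusted p of 0.0330 by the same exact test. Summed reads count a molecule once for each cytosine it covers, so these p-values are too small. When read counts were divided by how many cytosines were summed, the adjusted p was 1 over both strands and on the plus strand alone. Every intermediate stretch tested under this division had the same adjusted p, so it cannot decide whether the plus strand call would stand.

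Across all 56 stretches, with both strands summed, 0 were called between the libraries at an adjusted p under 0.05 and at least 10 points by Fisher's exact test, against 2.26% of autosomal stretches. An unadjusted p under 0.05 was reached by 4 of the 56, and 4 differed by at least 10 points. The differences ran from -14.9 to 12.8 points. Among the 12 intermediate stretches 0 were called and 1 had an unadjusted p under 0.05, while 391 of the 10797 intermediate autosomal stretches were called (3.62%).

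**Figure D4:**
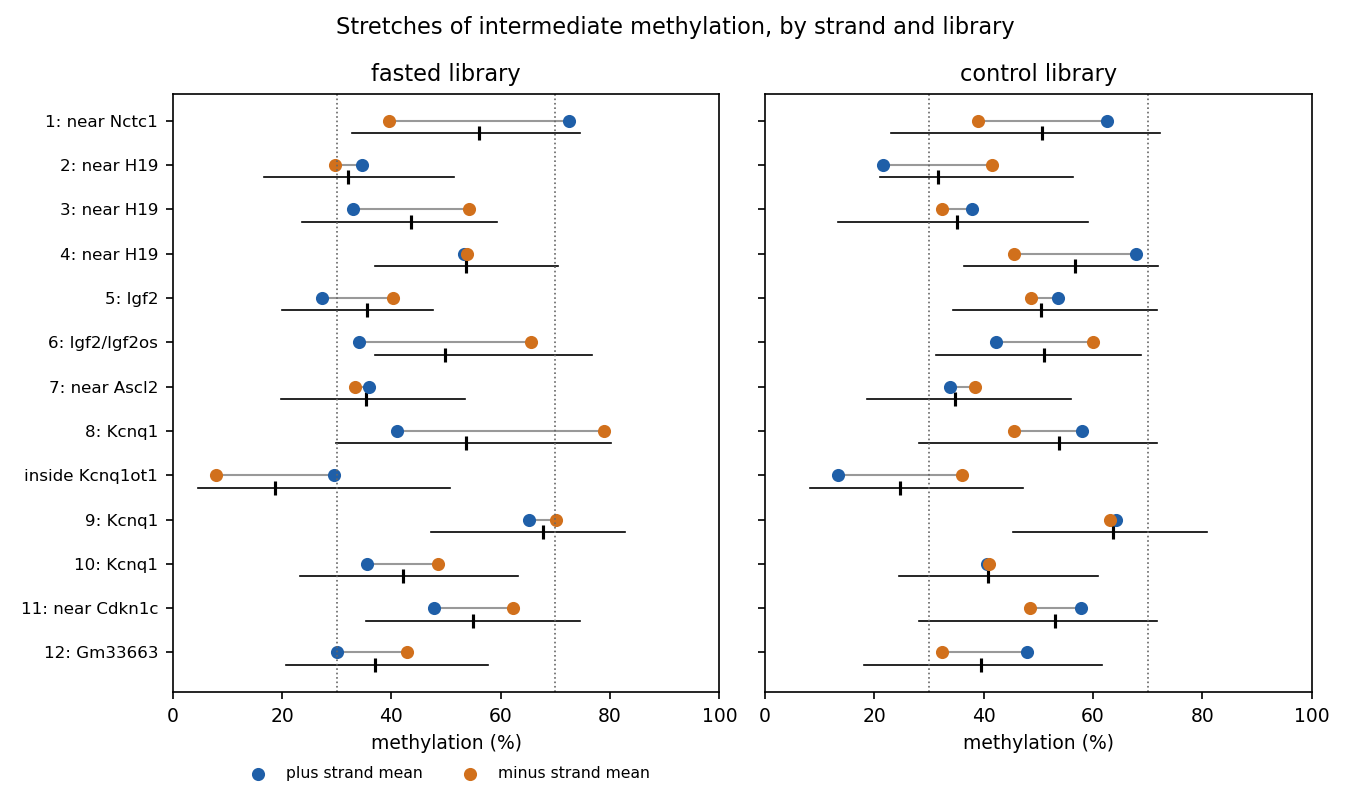
Mean methylation (%) of plus and minus strand cytosines in the 12 intermediate stretches and in the stretch inside Kcnq1ot1, numbered along the chromosome, with the fasted library left of the control library. Black ticks and lines give the mean over cytosines and the exact 95% binomial interval of a single set of reads per strand, and dotted lines stand at 30 and 70%.

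Inside Kcnq1ot1, chr7:143295375-143295618 held the cytosines measured closest to its start, 28 of them at 929 to 1172 bp into the gene. The stretch averaged 18.7% in the fasted and 24.7% in the control library, so it did not meet the rule for intermediate methylation under any of the limits tried. Taken as a single set of 14 reads in the fasted and 21 in the control library, the exact 95% intervals were 4.66 to 50.8% and 8.22 to 47.2%. These sets were rounded to 3 methylated reads of 14 in the fasted and 5 of 21 in the control library. Their depth was that of the less covered cytosines of the stretch. A level of 50% lay just inside the interval of the fasted library and just above that of the control library. The intervals overlapped over most of their range, so they do not separate the libraries. Plus strand cytosines averaged 29.5% and minus strand cytosines 7.96% in the fasted library, against 13.3% and 36.1% in the control library. The strands were apart by 21.5 points in the fasted and -22.8 points in the control library, in opposite directions.

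The stretch divided by depth. At chr7:143295375-143295443, 10 cytosines, each with 10 reads or more in both libraries, averaged 29.5% in the fasted and 27.1% in the control library. On their plus strand the mean was 40% in the fasted and 21.0% in the control library, and on their minus strand 18.9% and 33.1%. The other 18 cytosines averaged 12.7% in the fasted and 23.4% in the control library. At all 9 on the plus strand the control library had 1 methylated of 11 reads, and at 8 of the 9 the fasted library had 2 of 8. At 8 of the 9 on the minus strand the fasted library had 0 of 6, and at 8 of the 9 the control library had 4 of 10. A count of 0 of 6 allows up to about 50%, taken as 3 reads over the total. The near-constant counts mean that these 18 values are close to 1 reading per strand in each library.

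On summed reads the fasted library was higher by 16.1 points on the plus strand, with an adjusted p of 0.000583, and the difference on the minus strand was -28.2 points with an adjusted p of 0.000140 (Fisher's exact test, Benjamini-Hochberg). When read counts were divided by how many cytosines were summed, the adjusted p was 1 for both. That division leaves fewer reads than the better covered cytosines of the stretch had. Every intermediate stretch tested under it had the same adjusted p, so it cannot decide whether these calls would stand. No single cytosine of the stretch was called, and the smallest unadjusted p was 0.0466. Upstream of the Kcnq1ot1 start the nearest measured stretch, chr7:143299486-143299682, was 2939 bp away and methylated at 94.9% in the fasted and 94.4% in the control library. Over the whole of Kcnq1ot1 48 cytosines averaged 46.7% in the fasted and 48.0% in the control library.

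Kcnq1 was methylated through most of its length, with 314 cytosines at a mean of 60.0% in the fasted and 60.2% in the control library and medians of 77.8% and 78.2%. Its lower end, the start of the gene, was unmethylated, with 23 cytosines at 2.61% in the fasted and 4.09% in the control library. The gene held 3 intermediate stretches of 6 cytosines each. At chr7:143124650-143124817 the mean was 53.7% in the fasted and 53.8% in the control library, at chr7:143395204-143395335 it was 67.7% and 63.7%, and at chr7:143412614-143412771 it was 42.1% and 40.8%, fasted before control throughout. Their differences of -0.0958, 3.996 and 1.24 points were small beside intervals of 29.9 to 80.2% and 28.2 to 71.8% in the fasted and control library at the first of them. By strand, the first had 41.0% on the plus and 78.9% on the minus strand in the fasted library, against 57.9% and 45.5% in the control library. These means come partly from different CpGs, with 4 cytosines on the plus and 2 on the minus strand. Over CpGs measured on both strands, plus minus minus was -16.7 points in the fasted and 19.5 points in the control library. The second had 65.2% on the plus and 70.2% on the minus strand in the fasted library, against 64.3% and 63.0% in the control library. The third had 35.6% on the plus and 48.6% on the minus strand in the fasted library, against 40.7% and 41.0% in the control library. Some of these directions turned with the setting. In the second stretch plus minus minus was -5.02 points in the fasted library, and 4.83 points with at least 10 reads. In the third it was -0.366 points in the control library, and 14.5 points over CpGs measured on both strands. Single cytosines within these stretches were far apart. In the first, 143124650 had 23.1% in the fasted and 26.7% in the control library, while 143124694 had 61.1% and 88.2%.

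Cdkn1c varied along its length. Its 151 cytosines, joined in a single stretch, averaged 21.7% in the fasted and 19.99% in the control library, and 52 of them lay at 20 to 80% as the mean of the libraries. In bins of 300 bp, the bin at the far end of the gene (chr7:143458918-143459208, 18 cytosines) averaged 47.9% in the fasted and 44.8% in the control library. Its cytosines ran from 0 to 100% in the fasted and from 0 to 83.3% in the control library, so these means mix low and high cytosines. The next bin of 56 cytosines averaged 18.2% in the fasted and 15.1% in the control library. The bins after it, toward the start, averaged 12.6, 14.7, 28.7 and 12.5% in the fasted library and 11.4, 22.2, 25.9 and 8.09% in the control library. The bin at the far end was the highest in both libraries. Neighbouring cytosines stepped by 11.2 points in the fasted and 10.1 points in the control library, against 11.6 and 12.1 points in autosomal stretches with a mean level of 10 to 40%.

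**Figure D5:**
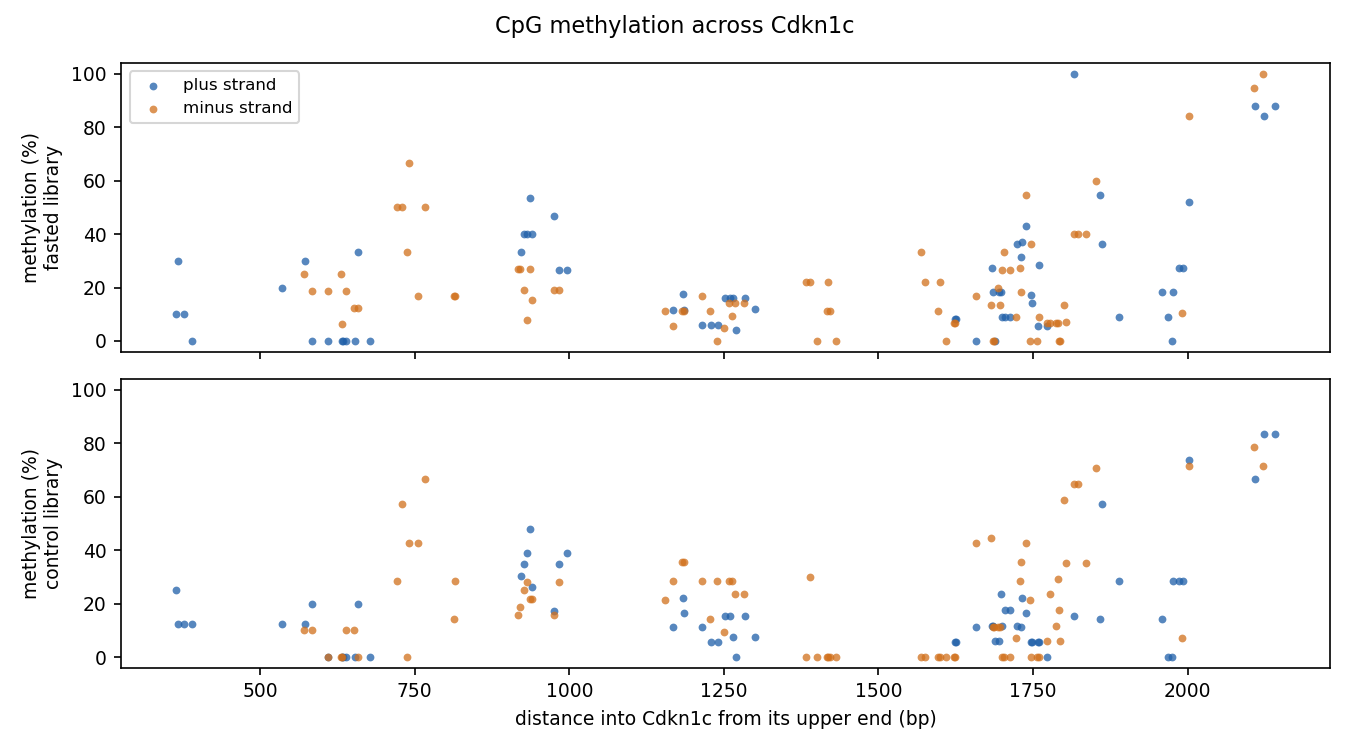
Methylation (%) of 151 cytosines across Cdkn1c against the distance from its upper end, which is its start (bp), by strand, with the fasted library above the control library. Most cytosines lie below 40% in both libraries, and the cytosines farthest from the start are the highest.

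Of the 1430 members 1 cytosine was called between the libraries, against 0.0548% of autosomal cytosines (adjusted p under 0.05 and at least 25 points). It was higher in the fasted library, as were 0.0302% of autosomal cytosines, while 0.0246% of autosomal cytosines were called lower. It lay in Cdkn1c at 143459242 on the plus strand, where 8 of 8 reads were methylated (100%) in the fasted and 4 of 26 (15.4%) in the control library, a difference of 84.6 points with an adjusted p of 0.0464 by Fisher's exact test. The minus strand of the same CpG went the other way, with 12 of 30 reads (40%) in the fasted and 22 of 34 (64.7%) in the control library and an adjusted p of 1. With the strands merged, or with read counts halved, 0 of the members were called. The next smallest p belonged to 143463979 on the minus strand, upstream of Cdkn1c inside the predicted gene Gm33663, where 6 of 48 reads (12.5%) were methylated in the fasted and 20 of 36 (55.6%) in the control library, with an adjusted p of 0.0551 by Fisher's exact test. Its plus strand partner had 12 of 48 (25%) in the fasted and 8 of 30 (26.7%) in the control library. Where at least 10 reads were required, this cytosine was called in place of the first, with an adjusted p of 0.0399 by Fisher's exact test.

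Differences of at least 25 points were seen at 112 members (7.83%), against 7.41% of autosomal cytosines. An unadjusted p under 0.05 was reached by 27 (1.89%), against 1.85% of autosomal cytosines. The H19 and Igf2 window held 3 of the 27 (0.855% of its cytosines) and the Kcnq1 window 24 (2.22%). Cdkn1c alone held 10 of them, 6.62% of its 151 cytosines. These 10 are not independent, since neighbouring cytosines can be read from the same molecules. For example, 143459299 and 143459320 on the plus strand each had 35 reads in the fasted and 36 in the control library. Higher levels in the fasted library were seen at 509 members and lower levels at 504.

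Upstream of Cdkn1c, chr7:143461597-143461828 began 538 bp from the gene and was intermediate at 55.0% in the fasted and 53.1% in the control library over 6 cytosines. By strand the fasted library had 47.8% on the plus and 62.3% on the minus strand, and the control library 57.8% and 48.4%. These directions turned with the setting. With at least 10 reads plus minus minus was 4.96 points in the fasted and -13.8 points in the control library. Over CpGs measured on both strands it was 1.49 points in the fasted and 5.04 points in the control library. Further out, chr7:143465340-143465472 inside Gm33663 was intermediate at 37.0% in the fasted and 39.4% in the control library over 11 cytosines. That stretch spanned nearly the full scale, since 143465389 had 0 of 10 reads methylated in the fasted library, which allows up to 30%, and 0 of 6 in the control library, which allows up to 50%. Its strands stood at 30% on the plus and 42.8% on the minus strand in the fasted library, against 48% and 32.3% in the control library. At 143465461 the level was 95% in the fasted and 75% in the control library. The remaining intermediate stretch, chr7:142949975-142950198, 16624 bp from Ascl2, averaged 35.4% in the fasted and 34.8% in the control library over 5 cytosines. Its 4 plus strand cytosines averaged 35.9% in the fasted and 33.9% in the control library, and its single minus strand cytosine had 33.3% and 38.5%.

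Between the strands of single CpGs, 0 of the 474 member CpGs were called in either library, against 0.0471% of autosomal CpGs in the fasted and 0.0498% in the control library (Fisher's exact test, adjusted p under 0.05 and 25 points). An unadjusted p under 0.05 was reached by 15 member CpGs in the fasted library (3.16%) and 12 in the control library (2.53%), against 1.73% and 1.71% of autosomal CpGs. The strands were at least 25 points apart at 40 member CpGs in the fasted and 56 in the control library. Over the 51 CpGs of the intermediate stretches and the Kcnq1ot1 stretch the mean absolute strand difference was 16.1 points in the fasted and 20.7 in the control library, against 8.17 and 8.71 over all member CpGs and 5.94 and 6.16 over the autosomes. Levels near 50% leave more room for counting error than levels near 0 or 100%, and its part in these differences was not tested.

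Other genes of the Kcnq1 domain ranged from unmethylated to highly methylated. Phlda2, measured outside the window, averaged 1.33% in the fasted and 1.44% in the control library over 107 cytosines, with single cytosines reaching 11.1% in the fasted and 22.2% in the control library. Ascl2 averaged 3.63% in the fasted and 4.16% in the control library over 78 cytosines. Cd81, a tetraspanin gene, averaged 16.5% in the fasted and 13.2% in the control library over 77 cytosines, and Tssc4 averaged 7.39% and 6.61% over 74. Tspan32 and Trpm5, with 8 cytosines each, were higher, at 70.6% and 75.04% in the fasted library against 61.0% and 79.5% in the control library. None of the cytosines in these genes was called. An unadjusted p under 0.05 was reached by 1 cytosine each in Cd81 and Tssc4.

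For comparison with other imprinted genes on the same chromosome, the maternally methylated promoter region of Peg3 held 3 intermediate stretches. They averaged 60.0, 35.8 and 46.7% in the fasted and 54.0, 30.8 and 34.7% in the control library. Inside Snrpn, another imprinted gene, chr7:60004900-60005229, which lies 444948 bp from the upper end of the gene as annotated, averaged 40.2% in the fasted and 29.1% in the control library, below the 30% limit in the control library only. A further 4 Snrpn stretches were intermediate. They averaged 69.0, 47.9, 69.8 and 53.2% in the fasted and 66.7, 42.7, 63.7 and 66.7% in the control library. In the Kcnq1ot1 stretch the levels of 18.7% and 24.7% in the same libraries were lower than in any of these, a difference that was not tested. Neighbouring cytosines stepped by 3.84 points in the fasted and 2.57 points in the control library inside Kcnq1ot1, against 1.94 and 2.16 points at Peg3. In the intermediate Snrpn stretches the step was larger, 15.0 points in the fasted and 7.33 in the control library, over 7 pairs in each.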

How the data were processed

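Per the labels' protocols, liver DNA was digested with TaqαI and MspI, size selected at 150 to 350 bp after adapter ligation, bisulfite converted, amplified and sequenced. Bismark 0.14.3, bcl2fastq 1.8.4 and mm10 come from the submitters' processing notes, while trimming, duplicate handling and filters were not given in the sources used here. The deposited files give methylated and total read counts per CpG cytosine and strand in a text field, beside a deposited score that is proportional to the methylated fraction. These counts were used without normalization, and all 258554 cytosines inside RefSeq promoter windows lay at a CG.

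Cytosines were compared by two-sided Fisher's exact tests on read counts, strands apart, and stretches on summed reads, with Benjamini-Hochberg adjustment over the 19 autosomes (Python 3.11.15, SciPy 1.17.1, numba 0.67.0). The tests were checked on simulated data in which the reads of each cytosine were drawn independently. That check cannot show the effect of molecules shared between cytosines on the p-values of stretches. Intervals of stretches are exact Clopper-Pearson intervals at 95%. Those of the window differences are normal approximations at 95%, to which cytosines fully methylated or fully unmethylated in a library add no error. Both kinds cover counting error only, since PCR copies were not marked by molecular identifiers and are not independent. The level that a count of 0 is said to allow is 3 reads divided by the read total. It is a rough approximation at low depth and not an exact limit. Genes were placed by RefSeq positions, which carried no strand. Named were the 6 genes of the domains, other genes of the domains from a list, every intermediate stretch with its lowest and highest cytosine, called cytosines, and the Peg3 and Snrpn stretches. Members and lists were chosen with earlier results of these data known. Alternatives were other minimum reads, gaps and limits, merged or single strands, read weighting, and halved or divided read counts.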

Additional observations from a re-analysis of the deposited data

How the results depend on the processing

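Read counts limited every result: with a median of 14 reads a cytosine and 1 library a group, only counting error is known. No paired analysis was possible because each group has 1 library, and for the same reason no library could be left out. The called cytosines numbered 1, and 0 with strands merged or with read counts halved. The 12 of 56 intermediate stretches (21.4%, against 9.1% of autosomal stretches) became 5 of 44 at a minimum of 10 reads (11.4%, against 8.60%) and 5 of 33 at a minimum of 10 cytosines (15.2%, against 7.11%). Of the intermediate stretches 0 were called, and 1 on the plus strand alone, in Igf2. The Kcnq1ot1 stretch was called on either strand alone, in opposite directions. With divided reads none of these calls remained. Every intermediate stretch had the same adjusted p under that setting, so it cannot decide whether the calls would stand. The difference of the H19 and Igf2 window, -0.454 points, was -2.34 at a minimum of 10 reads and -2.17 with every read weighted equally. Stretch differences that were not called over both strands changed sign in places. The stretch at the H19 start went to -11.0 (at least 10 reads), -14.3 (at least 20 reads), -5.62 (reads weighted equally) and -11.8 points (minus strand). The stretch 2767 bp upstream of H19 went to -7.62 (at least 10 reads) and -4.81 points (plus strand), and the one 3880 bp upstream to 8.17 (minus strand). The Kcnq1ot1 stretch went to 2.42 (at least 10 reads), 9.48 (at least 20 reads) and 16.1 points (plus strand, where it was called). The stretch in Gm33663 went to 12.6 (at least 10 reads), 3.47 (reads weighted equally) and 10.5 points (minus strand). On a single strand the stretch at 143412614 in Kcnq1 had -5.10, the one 538 bp from Cdkn1c -10.0 and the one over Igf2os 5.56 points. When reads were divided by how many cytosines were summed, an alternative chosen after seeing the data, the single-strand differences were the same. Each of these alternatives leaves out reads, strands or cytosines or weights them anew, and the cause was not tested further. Within a library, the strand difference of the Igf2os stretch in the fasted library was -31.4 points, and 16.7 over CpGs measured on both strands.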

Other observations

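Beyond the edges of the 2 windows, further genes of the domains were measured. Th, which encodes tyrosine hydroxylase and lies between the domains, averaged 55.5% in the fasted and 61.9% in the control library over 47 cytosines, 30 of them lower and 16 higher in the fasted library. Osbpl5, an oxysterol-binding protein gene, averaged 65.4% in the fasted and 59.7% in the control library over 114 cytosines, 53 higher and 31 lower. Slc22a18, a transporter gene, averaged 33.0% in the fasted and 33.1% in the control library, and Nap1l4, a nucleosome assembly protein gene, 11.3% and 11.7%. None of these genes held a called cytosine by Fisher's exact test after Benjamini-Hochberg adjustment. An unadjusted p under 0.05 was reached by 2 cytosines in Th, 5 in Osbpl5 and 1 in Slc22a18.

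On the other side of H19, Nctc1 averaged 87.6% in the fasted and 85.4% in the control library over 33 cytosines, and the muscle gene Tnnt3 81.9% and 74.9% over 22. Mrpl23, a mitochondrial ribosomal protein gene, averaged 10.4% in the fasted and 9.76% in the control library over 71. None held a cytosine with an unadjusted p under 0.05 by Fisher's exact test.

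Among members at 20 to 80% methylation with at least 20 reads, methylated and total reads were both even at 55% of 100 cytosines in the fasted library and 50% of 90 in the control library. Over the autosomes the shares were 41.1% in the fasted and 43.2% in the control library. Upstream of the H19 start, 142578204 on the plus strand had 10 of 34 reads methylated in the fasted and 6 of 18 in the control library, while 142578191 on the same strand had 5 of 17 and 3 of 9. Whether read mates or duplicates entered the deposited counts was not tested.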
